A study of Homo sapiens with 4 samples.

Results

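Very short internal introns, 60 to 150 nt long, were followed in nascent RNA of K562 cells that carried wild-type or K700E SF3B1. They are annotated introns of protein-coding genes that are neither first nor last in any transcript holding them, and that had at least 5 reads in each of the 4 libraries. This rule gave 976 introns in 573 genes, out of 19467 annotated introns of any kind with that read minimum and out of 10472 internal introns of protein-coding genes. The read minimum is a measured value, so how deeply these introns were read is given as a description. Splicing itself did not enter the choice. Without the read minimum, 3166 introns of this length and position had a read in every library and 7421 had a read in any.

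K562 is an established line from a chronic myeloid leukaemia with erythroid features. All 4 samples received doxycycline at 1 µg/ml to induce the modified allele and were harvested on day 4; 2 libraries were labelled wild type (WT) and 2 were labelled SF3B1 K700E. The labels do not say whether a line is a single clone or whether an unmodified SF3B1 allele remained, nor that replicates were grown separately, so p-values cover the spread between these libraries, which may be technical. RNA bound to chromatin was purified with 25 µM α-amanitin in the buffers, depleted of polyadenylated and ribosomal RNA, and read as full-length PacBio cDNA.

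An intron is removed by the spliceosome in a pair of cuts, at its 5′ splice site and at its 3′ splice site. As part of the U2 small nuclear ribonucleoprotein, SF3B1 grips the branch point region just upstream of the 3′ splice site, and K700E, a recurrent change in myeloid neoplasms, is known for the use of cryptic 3′ splice sites. In an intron this short, the 5′ splice site, the branch point and the 3′ splice site lie close together, and such introns are thought to be recognised across the intron rather than across the neighbouring exons.

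The measure throughout is splicing efficiency, the percentage of an intron's reads in which its annotated junction is found. A read spliced at an unannotated site counts as unspliced. A read over several introns counts in each, so introns of 1 gene share reads and are not independent. The libraries held 1346809 and 1185049 read-intron overlaps in WT and 459726 and 909679 in K700E, and K700E replicate 1 was the shallowest. The median short internal intron was read 27 and 19 times in WT and 9 and 17 times in K700E, so that 1 read moves a typical K700E value by several points. The labels also call the cells epithelial. Of 12 K562 marker genes fixed for a check, 7 had overlaps in every library and KLF1 and EPOR had none; of 9 epithelial genes, only EPCAM had overlaps in every library, and GRHL2, KRT5 and CLDN4 had none. Summed overlaps were 808 to 4057 per library for the first list and 13 to 46 for the second. Most of the first sum came from 1 gene, TFRC. It gave 2816 of 2994 and 3571 of 4057 overlaps in WT, and 730 of 808 and 1716 of 2017 in K700E. In bulk RNA, fewer cells of a type and less RNA per cell cannot be told apart, and the part of these markers in the results was not tested.

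Intron letters could be read for 159 of the 976 introns, those that lie whole inside an exon of another annotated GENCODE 29 transcript of the same gene. Below are the 4 least and the 4 most efficiently spliced of these that were coding, had no overlapping annotated intron and at least 100 reads, so that the extremes can be compared letter by letter; they were chosen after their values were seen. Capitals mark the first 5 bases, which hold the 5′ splice site, and the last 3, which hold the 3′ splice site. All are written 5′ to 3′ on the strand of the gene, with hg38 positions. The first 4 were spliced in 0 to 35.2% of reads, as the mean of the libraries.
ALAS2 intron 4, chrX:55020330-55020445, minus strand: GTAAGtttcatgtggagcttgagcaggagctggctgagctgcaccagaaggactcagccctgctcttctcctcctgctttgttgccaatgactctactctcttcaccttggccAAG
TXNIP intron 5, chr1:145994438-145994543, minus strand: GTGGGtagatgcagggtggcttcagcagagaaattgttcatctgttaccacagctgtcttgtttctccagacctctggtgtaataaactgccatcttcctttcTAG
SKIC3 intron 24, chr5:95516587-95516671, minus strand: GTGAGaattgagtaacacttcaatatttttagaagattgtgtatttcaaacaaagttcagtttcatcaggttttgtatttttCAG
TXNIP intron 4, chr1:145994801-145994928, minus strand: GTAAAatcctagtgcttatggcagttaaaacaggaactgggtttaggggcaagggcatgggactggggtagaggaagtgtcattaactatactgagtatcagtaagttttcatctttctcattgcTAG
The other 4 were spliced in 93.9 to 97.5% of reads.
UBR4 intron 76, chr1:19113828-19113944, minus strand: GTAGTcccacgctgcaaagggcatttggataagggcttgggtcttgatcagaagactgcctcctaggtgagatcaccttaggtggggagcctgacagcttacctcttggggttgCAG
NPM1 intron 6, chr5:171392817-171392913, plus strand: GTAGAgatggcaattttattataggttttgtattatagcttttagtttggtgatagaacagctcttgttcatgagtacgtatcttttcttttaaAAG
GAPDH intron 6, chr12:6537217-6537308, plus strand: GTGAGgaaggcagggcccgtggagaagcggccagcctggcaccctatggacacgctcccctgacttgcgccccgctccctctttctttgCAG
GAPDH intron 5, chr12:6537011-6537100, plus strand: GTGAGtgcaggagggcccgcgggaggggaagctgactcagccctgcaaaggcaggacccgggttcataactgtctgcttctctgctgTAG

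ALAS2 encodes the erythroid enzyme that starts haem synthesis. No read carried the junction of its 116 nt intron, 0 of 136 reads over the 4 libraries, which allows a share of up to 2.21% (3 reads of the total, counting error only). Like every intron printed here, it lies whole inside an exon of another annotated transcript, and a read that keeps this exon counts as unspliced. The 0 therefore does not tell an intron that is poorly spliced from RNA in which these letters are exon. The intron begins with GTAAG, the letters most often taken as a strong 5′ splice site. TXNIP, the thioredoxin-interacting protein, had its intron 5 spliced in 29.2% and 11.5% of WT reads and 50% and 16.1% of K700E reads, and its intron 4 in 31.0% and 22.2% and in 66.7% and 20.7%. The ranges of WT and K700E overlapped in both TXNIP introns, and the highest value of each intron rested on only 12 reads. SKIC3, which encodes a subunit of the cytoplasmic SKI complex for RNA decay, stood at 27.9% and 37.1% in WT against 35.7% and 19.0% in K700E. At the other end, intron 6 of NPM1, the nucleolar chaperone nucleophosmin, was spliced in 97.8% and 89.5% of WT and 90.9% and 100% of K700E reads. Intron 76 of UBR4, a very large ubiquitin ligase, stood at 99.4% and 87.7% in WT against 100% and 88.4% in K700E. Introns 5 and 6 of GAPDH, the glycolytic enzyme, stood at 100% in both WT libraries and in K700E replicate 2.

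The annotation can place several introns on the same RNA, and intron 4 of GAPDH shows how that bears on efficiency. A 129 nt intron (chr12:6536791-6536919, plus strand) and a 102 nt intron (chr12:6536818-6536919) end at the same 3′ splice site.
GAPDH intron 4, 129 nt form: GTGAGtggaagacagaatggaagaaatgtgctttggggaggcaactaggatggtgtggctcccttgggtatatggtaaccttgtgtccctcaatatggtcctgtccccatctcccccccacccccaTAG
GAPDH intron 4, 102 nt form: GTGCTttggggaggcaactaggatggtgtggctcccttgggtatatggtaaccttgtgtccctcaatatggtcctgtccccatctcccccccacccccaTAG
The longer form was spliced in 89.7% and 97.7% of WT reads and in 77.8% and 93.8% of K700E reads. The shorter form was spliced in 0 of 156 reads, which allows up to 1.92%. Reads that used the outer 5′ splice site count as unspliced for the inner one. Of the 976 introns, 348 overlapped another annotated intron, whatever the reads of that intron, and 628 (64.3%) did not. The share without an overlap was 55.2% among longer internal introns.

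Splicing of the short internal introns ran from none to complete. Mean efficiency was 65.7% and 60.9% in the WT libraries and 57.6% and 60.5% in the K700E libraries, with medians of 80%, 72.7%, 66.7% and 71.4%. The mean over the 4 libraries was under 10% in 155 introns and 90% or more in 169. Of the 155, 149 overlapped another annotated intron. Without an overlap the means were 79.6% and 74.3% in WT against 69.8% and 73.9% in K700E, and with one they were 40.5%, 36.7%, 35.5% and 36.5%. The overlapped introns differed from the others by -37.1 ± 2.07 points (SD over 4 libraries) and were lower in 4 of 4 libraries; the exact sign-flip permutation test over libraries (two-sided) gave p = 0.125, the smallest that 4 libraries allow. No read of any library carried the junction of 83 introns, 79 of them overlapped, with 24 to 288 reads each; a count of 0 then allows a share of up to 1.04 to 12.5%.

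**Figure D1:**
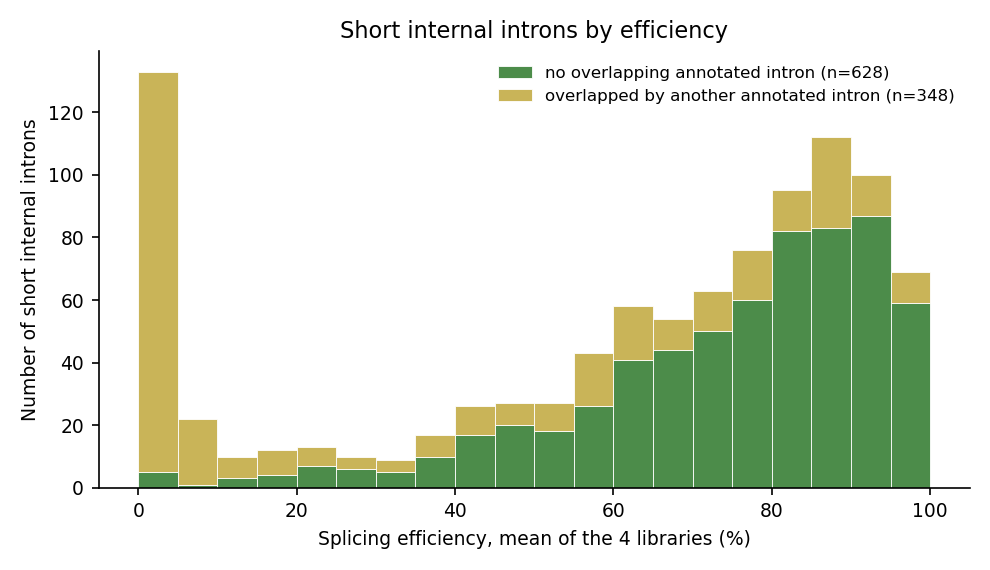
Number of short internal introns (y axis) in bins of splicing efficiency, the mean of the 4 libraries in percent (x axis), stacked by whether another annotated intron overlaps them. The bar at the left end is almost wholly overlapped introns, while the 628 introns without an overlap gather above 60%.

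Which genes stood at the ends followed from a rule: among introns with at least 20 reads in every library, the 6 lowest and the 6 highest means were named. The lowest were all overlapped by other annotated introns. They lay in NPIPB12 (0%), POTEE (1.05%), SETD5 (1.44%), ORC3 (2.11%), STEAP1B (2.32%) and DMTF1 (2.89%). SETD5 is a chromatin protein and ORC3 a subunit of the origin recognition complex. NPIPB12, POTEE and STEAP1B belong to families with near-identical copies, so their reads may be split between copies and their values are uncertain. The highest lay in ADGRV1, a very large adhesion receptor (intron 40, 98.9%), KNTC1, a kinetochore protein of the ROD complex (intron 17, 98.8%), MDN1, a ribosome assembly ATPase (intron 42, 97.9%), NUP188, a nuclear pore scaffold protein (intron 7, 97.8%), UBR4 (intron 36, 97.1%) and THADA (intron 5, 97.0%). In 8 short introns every read of every library was spliced, 2 of them in UBA1, the ubiquitin-activating enzyme, and 2 in PLCB2, a phospholipase C.

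The most deeply read short introns were in EEF1A1, HNRNPA2B1 and KNTC1. HNRNPA2B1 encodes a nuclear RNA-binding protein, and its 98 nt intron 2 (chr7:26197733-26197830, minus strand) overlaps another annotated intron. It was spliced in 0.79% and 8.29% of WT reads and in 3.64% and 2.70% of K700E reads, from 824 reads in all. The 3 KNTC1 introns, numbers 14, 15 and 17 with 660 to 759 reads each, were spliced in 89.2% or more of the reads of every library. Intron 14 stood at 96.0% and 94.6% in WT against 89.2% and 94.1% in K700E, and intron 15 at 97.2%, 98.8%, 93.8% and 97.0%. K700E replicate 1 was the lowest of the 4 libraries at all 3 of these introns.

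Efficiency differed by length within the class, compared over the 628 introns without an overlap. Those of 60 to under 80 nt (42 introns) stood at 68.5% and 64.7% in WT against 58.8% and 61.4% in K700E. Those of 80 to under 100 nt (285) stood at 78.6%, 74.1%, 68.4% and 73.2%, those of 100 to under 120 nt (153) at 82.3%, 74.6%, 71.2% and 75.9%, and those of 120 to 150 nt (148) at 82.2%, 77.1%, 74.0% and 76.7%. Introns under 80 nt differed from the rest by -11.8 ± 1.27 points, and were lower in 4 of 4 libraries (exact sign-flip permutation test, p = 0.125, the smallest possible). From 80 nt upwards the ranges of the bands over the 4 libraries overlapped. Within each library, introns of 80 to under 100 nt still stood below those of 120 to 150 nt, a difference that was not tested. The 4 members of 63 to 68 nt had no spliced read: a 63 nt intron of RPL8, a ribosomal protein, a pair of 68 nt introns of EIF2B5, a subunit of the exchange factor of translation initiation, and a 68 nt intron of UBE2D3, a ubiquitin-conjugating enzyme. Other annotated introns overlap each of them, 1 at UBE2D3 and 2 at the others. At the other edge, the 150 nt introns of GCN1, SMG1 and CUL9 stood at 90.3%, 92.7% and 64.6%, and that of ZNF468, a zinc finger gene, which 3 other annotated introns overlap, had 0 of 78 reads spliced, which allows up to 3.85%. Outside the rule, 45 internal introns shorter than 60 nt stood at 0% in every library. At the upper edge the 4 introns of 150 nt had a mean of 61.9% and the 4 of 151 nt a mean of 60.9%. At the read minimum, 196 short introns whose poorest library had 5 reads had a mean of 56.9%, against 55.3% for 279 whose poorest library had 4.

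Compared with longer internal introns, the short ones were less often spliced, and the size of the gap depended on whether overlapped introns were counted. Longer introns without an overlap stood at 91.0% and 85.9% in WT against 83.2% and 87.4% in K700E. Short introns without an overlap differed from them by -12.5 ± 1.11 points and were lower in 4 of 4 libraries (exact sign-flip permutation test, two-sided, p = 0.125, the smallest possible). Over all introns, overlapped or not, the gap was -6.10 ± 1.19 points with the same p; it was -10.3 for introns with at least 10 reads in every library, -12.9 where overlapping introns were reduced to the most used and -3.76 without introns whose ratio exceeded 1. The gap was not even along the scale of length. Without overlaps, short introns differed from those of over 150 to 500 nt by -1.71 ± 0.705 points, from those of over 500 to 2000 nt by -13.2 ± 1.04, from those of over 2000 to under 20000 nt by -17.2 ± 1.85 and from the 78 of 20000 nt and more by -19.0 ± 3.40. With overlapped introns included, 2 of these comparisons had the other sign: short introns were higher by 3.43 ± 0.575 points than those of over 150 to 500 nt and by 7.54 ± 2.94 points than those of 20000 nt and more.

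**Figure D2:**
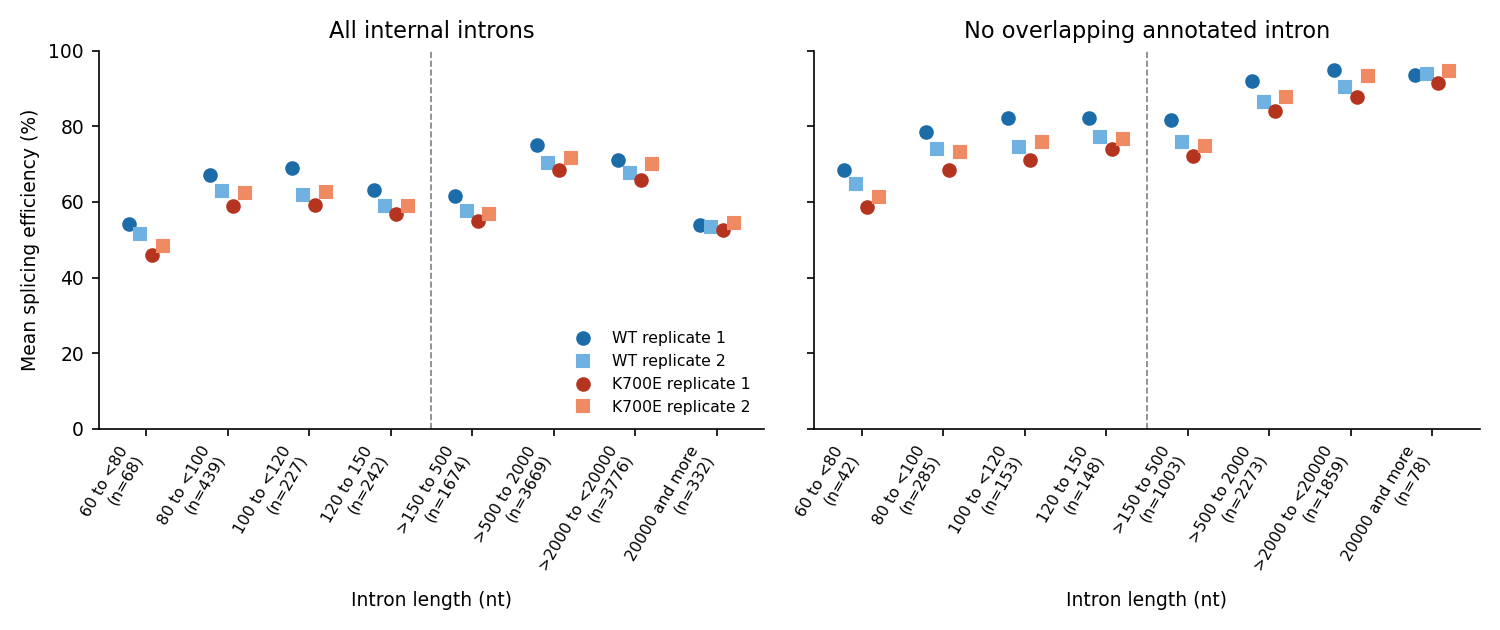
Mean splicing efficiency in percent (y axis) by intron length band in nt (x axis, number of introns in brackets), for all internal introns of protein-coding genes (left) and those without an overlapping annotated intron (right). Each point is 1 library; bands left of the dashed line are the short internal introns. On the right, the band under 80 nt is the lowest in every library, and from 500 nt upwards all libraries stand above every short band.

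Short introns also stood lower on average inside genes and inside transcripts. In 295 genes with both kinds of intron without overlaps, the short ones differed from the longer ones of the same gene by -9.61 ± 1.34 points on average, lower in 224 genes and higher in 70. Against the intron just before or after it in the same transcript, a short intron differed by -11.4 ± 0.284 points over 788 introns; 569 were lower and 202 higher. This difference was -6.78 ± 0.417 points over the 500 introns where neither side had an overlapping annotated intron (359 lower, 136 higher), and -6.55 for introns with at least 20 reads. Each of these held in 4 of 4 libraries, with p = 0.125 in the exact sign-flip permutation test, the smallest possible. A short intron and its neighbours share reads, and a neighbour could be a first or last intron or itself short. The intron upstream and the intron downstream gave similar gaps, -6.09 ± 0.743 and -6.17 ± 0.492 points without overlaps.

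Short introns were also more often embedded in an annotated exon, and those stood lower. An exon of another transcript of the same gene contained 159 (16.3%) of the 976, against 3.54% of longer internal introns; for 138 that transcript was annotated as a retained-intron one. The difference of these shares was not tested. Contained short introns differed from the others by -31.9 ± 1.73 points, and by -19.2 ± 1.65 points among the 628 without an overlap (65 against 563), and were lower in 4 of 4 libraries (exact sign-flip permutation test, p = 0.125, the smallest possible). Among longer introns without an overlap the same contrast was -21.1 ± 2.61 points. The printed sequences all come from contained introns and do not stand for the class as a whole.

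The letters at the splice sites were mostly the canonical ones. Of the 159 sequences, 156 began with GT and ended with AG, 3 began with GC and ended with AG, and 0 began with the U12-type letters ATATCCTT or GTATCCTT. GTAAG opened 18.2% of them and GTGAG 16.4%, against 27.5% and 17.9% of 335 longer introns read the same way. Median GC content was 42.1% (quartiles 32.6 and 52.3%) against 37.7%, and 42.8% of the short introns had no GGG run. The stretch of 20 bases before the 3′ splice site was C or T in a median of 70% of positions in both classes. The last bases of the upstream exon were AG in 58.2% of all 976 short introns and in 58.4% of longer ones. Among the 628 without an overlap, the 381 after an exon ending in AG stood at 81.3% and 76.0% in WT against 72.5% and 75.3% in K700E, and the other 247 at 77.0%, 71.6%, 65.6% and 71.7%. The introns after AG were higher in every library; this difference was not tested.

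Efficiency also varied with position along the transcript, described over the 628 introns without an overlap, which share libraries and in part genes and reads. The third of introns nearest the 3′ end of the gene, up to 16701 nt from it, stood at 74.4% and 67.8% in WT against 65.5% and 65.7% in K700E. The third farthest from it stood at 83.5%, 80.6%, 73.7% and 81.4%. Counted from the 5′ end, introns numbered 2 to 9 stood at 71.9% and 68.9% in WT against 66.0% and 69.3% in K700E, below those numbered 18 to 138 at 85.8%, 78.1%, 73.7% and 76.7%. Divided by the number of introns in the transcript, intron number gave the opposite order. The third with the lowest quotient, up to 0.35, stood at 82.8%, 80.5%, 75.7% and 81.8%. The third with the highest, from 0.58, stood at 78.1%, 69.9%, 65.0% and 67.4%. How intron number and this quotient relate to each other was not tested. Introns with 22 to 60 reads over the 4 libraries stood at 76.7%, 67.9%, 62.8% and 70.3%, and those with 108 to 759 reads at 84.8%, 81.1%, 77.9% and 79.7%. The part of read number in the differences by position was not tested. Exons next to short introns had a median length of 108 nt on either side, against 120 and 121 nt beside longer introns. In all, 131 of the 976 (13.4%) had another member as the next or the previous intron. They formed 70 pairs, with a median of 110 nt of exon between the 2 introns.

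K700E libraries were compared with WT libraries first over the class as a whole. Mean efficiency was 63.3% ± 3.38 for WT against 59.1% ± 2.10 for K700E (SD, n = 2 each), a difference of -4.22 points, and both K700E libraries were below both WT libraries. The exact permutation test (two-sided) gave p = 0.333, the smallest that 2 against 2 allow, so no call at 0.05 was possible. From WT to K700E, libraries numbered 1 differed by -8.09 points and those numbered 2 by -0.344 points. The difference was -1.83 points without WT replicate 1, -6.61 without WT replicate 2, -2.74 without K700E replicate 1 and, without K700E replicate 2, -5.70. Counting every read rather than every intron once gave -6.96 points. Longer internal introns differed by -2.25 points, and the gap between the classes differed between genotypes by -1.96 points (exact permutation test, p = 0.333, the smallest possible). Without overlaps the class differed by -5.12 points and longer introns by -3.21. The median over short introns differed by -7.32 points. In the bands of 60 to under 80, 80 to under 100, 100 to under 120 and 120 to 150 nt the differences were -5.56, -4.44, -4.52 and -3.17 points, with exact permutation p from 0.333 to 0.667; without WT replicate 1 those of the 2 upper bands were -0.925 and -1.08.

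No single short intron passed the test per intron. edgeR's quasi-likelihood test was run on spliced and unspliced reads of 15614 introns, of which 4 (0.0256%) passed at a false discovery rate of 0.05; an unadjusted p under 0.05 was found for 350 (2.24%). Among the 885 short introns tested, 0 passed (edgeR adjusted p = 1.00 for each after rounding), and 33 (3.73%) had an unadjusted p under 0.05. Of the 33, 30 were lower in K700E and 3 were higher, where all introns gave 1.8% lower and 0.442% higher. DESeq2 and limma also called 0, with 11 and 48 at an unadjusted p under 0.05. The count of 33 was 14 without WT replicate 1, 56 without WT replicate 2, 15 without K700E replicate 1, 12 without K700E replicate 2 and 17 with an estimated dispersion. The remaining 91 introns, 83 with no spliced read and 8 with no unspliced read, carried no contrast. Efficiency was lower in both K700E libraries than in both WT libraries at 208 (23.5%) of the 885, against 17.7% of all introns tested and 17.3% of longer internal ones. It was higher in both at 80 (9.04%), against 9.52% and 9.09%. The median difference was -3.95 points over the short introns tested and -2.01 over all. Replicates lay about as far apart as genotypes: the median distance between the WT libraries at an intron was 7.32 points and between the K700E libraries 10, against 6.83 between genotype means.

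**Figure D3:**
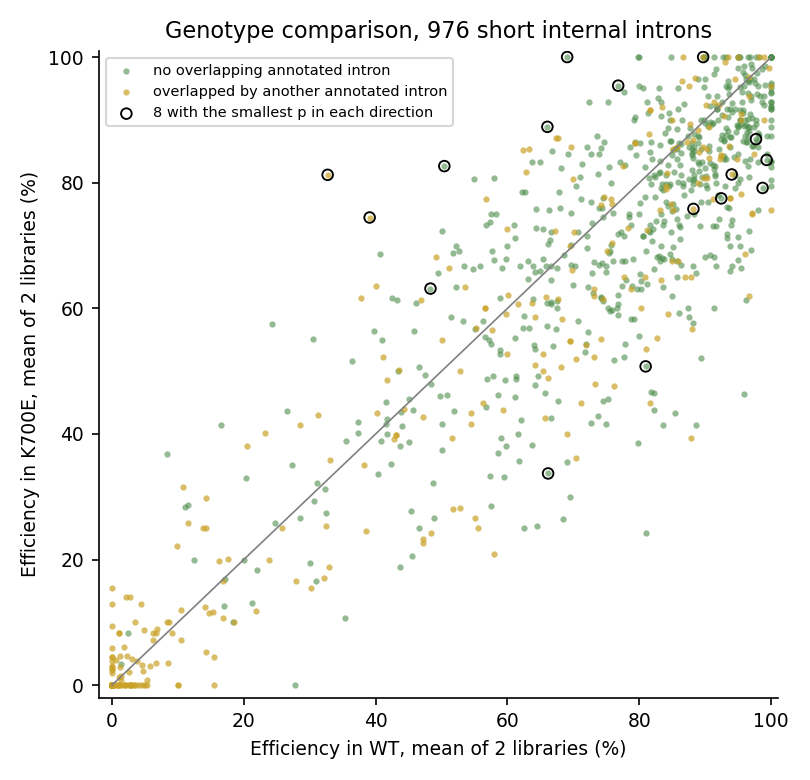
Mean splicing efficiency in percent in the 2 K700E libraries (y axis) against the 2 WT libraries (x axis) for the 976 short internal introns, 1 point each, coloured by overlap, with the line of equality. Rings mark the 8 lower and the 8 higher introns with the smallest unadjusted p, none of which passed the test; more points lie below the line (586) than above it (297).

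Of the short introns lower in K700E, the 8 with the smallest unadjusted p lay in 6 genes. The printed letters of 3 of them follow, as they could be read from containing exons; the EEF1A1 introns each overlap 1 other annotated intron.
XPO1 intron 9, chr2:61498793-61498864, minus strand: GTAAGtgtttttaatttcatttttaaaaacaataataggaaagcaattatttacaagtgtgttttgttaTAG
EEF1A1 intron 8, chr6:73518265-73518353, minus strand: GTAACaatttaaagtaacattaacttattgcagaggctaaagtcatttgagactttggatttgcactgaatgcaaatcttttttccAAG
EEF1A1 intron 4, chr6:73518849-73518931, minus strand: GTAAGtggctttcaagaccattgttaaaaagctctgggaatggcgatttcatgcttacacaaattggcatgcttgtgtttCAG
XPO1 encodes the nuclear export receptor exportin 1. Its 72 nt intron, 20.8% G or C, was spliced in 71.0% and 61.3% of WT reads and in 35.3% and 32.1% of K700E reads, from 107, 31, 17 and 28 reads. The 2 genotypes did not overlap, and the log2 odds ratio was -2.13 ± 0.84 (SE; edgeR unadjusted p = 0.0112, adjusted p = 1.00). Counting error alone (95% Wilson interval) spanned 61.8 to 78.8% and 43.8 to 76.3% for the WT libraries, and 17.3 to 58.7% and 17.9 to 50.7% for the K700E libraries. EEF1A1 encodes the elongation factor that brings aminoacyl-tRNA to the ribosome; it has processed pseudogenes of near-identical sequence, so its reads are less certain. Intron 8 stood at 100% and 88.0% in WT against 83.3% and 79.3% in K700E, with a log2 odds ratio of -2.89 ± 0.87 (edgeR unadjusted p = 0.000824, adjusted p = 1.00). The 100% in WT replicate 1 was a ratio above 1 that was set to 100%, from 502 junction reads over 498 reads. No unspliced read was then left in that library. Without WT replicate 2, which leaves only that library in WT, the log2 odds ratio of intron 8 was -9.27, and without WT replicate 1 it was -0.83. Intron 4 of EEF1A1, the most deeply read member with 1095 reads, stood at 89.3%, 87.1%, 80.9% and 70.8%.

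UBR4 gave 2 of the 8. Its 118 nt intron 4 (chr1:19198681-19198798, minus strand) was spliced in 90.5% and 71.4% of WT reads and 50% and 51.5% of K700E reads, and its 132 nt intron 23 in 100%, 98.6%, 73.9% and 93.3%. KMT2C, a histone H3 methyltransferase, had its 100 nt intron 30 (chr7:152194129-152194228, minus strand) spliced in 100% and 97.4% of WT reads and 83.3% and 75% of K700E reads, the 83.3% from 6 reads. TOP2A encodes DNA topoisomerase II alpha, which untangles DNA in dividing cells, and its 107 nt intron 9 stood at 99.1% and 85.7% in WT against 75% and 80% in K700E. The 72 nt intron 35 of MUC19, a gel-forming mucin, stood at 97.4%, 97.9%, 93.5% and 80.3%. In all 8 introns both K700E libraries were below both WT libraries. Their log2 odds ratios ran from -4.75 to -1.54.

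Of those higher in K700E, the 8 with the smallest unadjusted p had p from 0.00299 to 0.102 (edgeR, each with an adjusted p of 1.00), and only 3 of them had one under 0.05. ASPM, a spindle pole protein, had its 146 nt intron 2 spliced in 29.4% and 71.4% of WT reads and in 87.5% and 77.8% of K700E reads; 2 of these libraries had 7 and 8 reads. DTL, a substrate receptor of a ubiquitin ligase in the cell cycle, stood at 67.9% and 85.7% in WT against 94.1% and 96.8% in K700E for its 84 nt intron 4. STAM, an endosomal sorting adaptor, stood at 46.9% and 31.2% against 75% and 73.9% for its 81 nt intron 3. The 91 nt intron 3 of HSP90AB1, a cytosolic chaperone, was the most deeply read of these with 600 reads and stood at 41.6%, 55.0%, 61.8% and 64.5%. Values for RANBP2 intron 10, a nuclear pore protein gene, were 55.2%, 76.9%, 77.8% and 100%, and for SYNE2 intron 24, a nuclear envelope protein gene, 66.7%, 71.4%, 100% and 100% from 33 reads. RB1CC1, an autophagy protein, stood at 51.2%, 14.3%, 100% and 62.5% and the 98 nt intron of MUC19 at 94.7%, 84.6%, 100% and 100%. The 100% values of RANBP2 and MUC19 were ratios above 1 that were set to 100%. All 8 had both K700E libraries above both WT libraries; a choice by small p favours such introns.

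**Figure D4:**
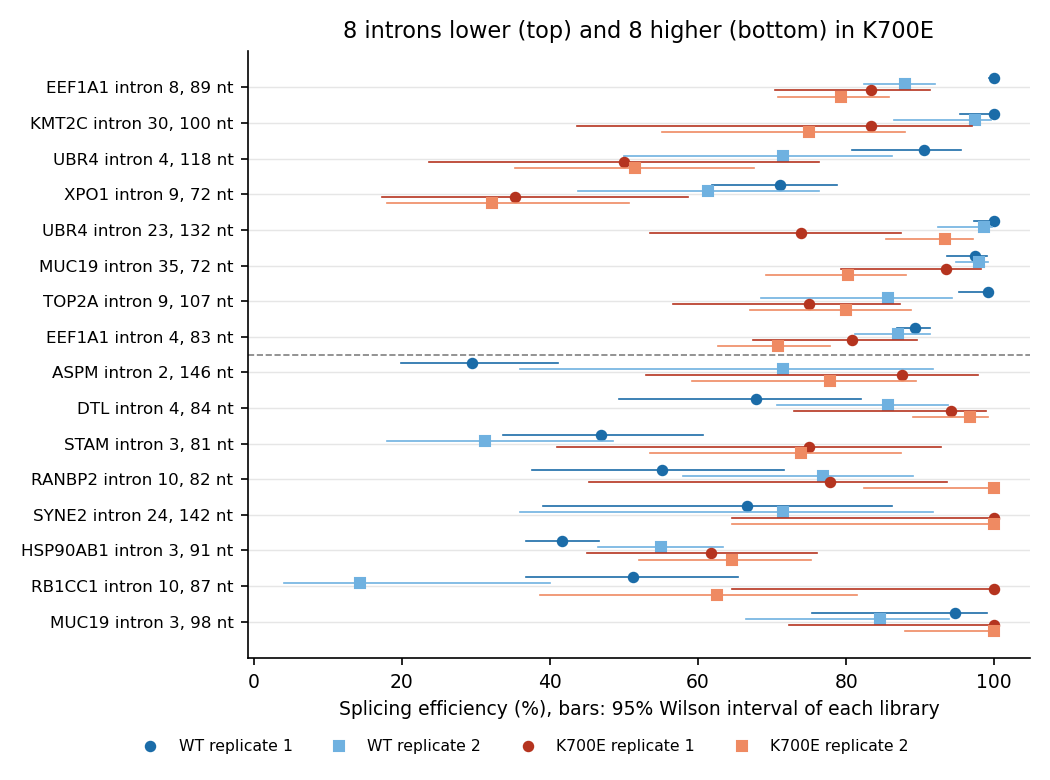
Splicing efficiency in percent (x axis) of 16 short internal introns, the 8 with the smallest unadjusted p among those lower in K700E (above the dashed line) and the 8 among those higher (below it). Each point is 1 library and each bar its 95% Wilson interval from the reads; within an intron the intervals of the genotypes often overlap, as in KMT2C and RANBP2.

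Several genes held many short introns, and these shared reads. There were 396 genes with 1 member, 92 with 2 and 85 with 3 or more; MUC19 had 19, ANKRD36 16, USP34 14, ANKRD36C 13, UBR4 11 and TLN1 10. The members of ANKRD36, ANKRD36C and ANKRD36B, repeat genes with near-identical copies, were 89 to 102 nt long, and their reads may be split between the copies. MUC19 averaged 82.4% and 76.8% in WT against 81.2% and 77.6% in K700E, a difference of -0.19 points within the spread of either genotype. TLN1 encodes talin, which ties integrins to actin. Its 10 introns averaged 94.0% and 85.5% in WT against 73.7% and 72.7% in K700E, 4 of them lower in both K700E libraries and 0 higher in both. USP34, a deubiquitinase, averaged 86.4%, 80.3%, 74.4% and 74.0%, with 5 of 14 lower in both, and UBR4 averaged 90.1%, 83.7%, 75.2% and 77.9%, with 7 of 11 lower in both. DYNC1H1, the heavy chain of cytoplasmic dynein, averaged 94.9%, 89.0%, 90.7% and 94.3% over 7 introns, and the genotypes overlapped. The 33 introns with an unadjusted p under 0.05 lay in 25 genes: TOP2A and UBR4 gave 4 each, all lower in K700E, and EEF1A1 and TLN1 gave 2 each.

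**Figure D5:**
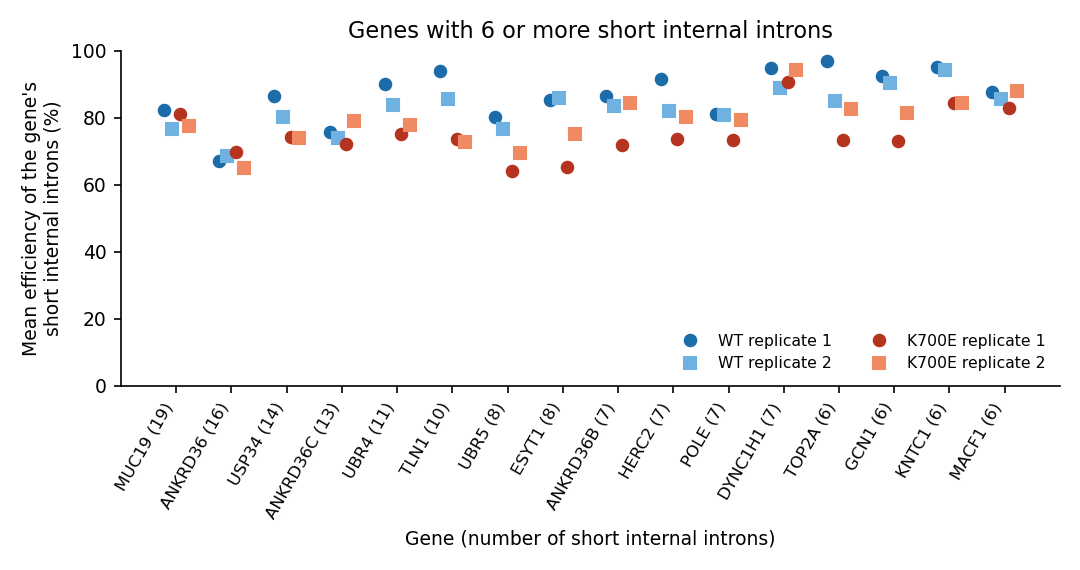
Mean splicing efficiency in percent of the short internal introns of each gene (y axis) for the 16 genes with 6 or more of them (x axis, number in brackets), 1 point per library. In USP34, UBR4, TLN1, TOP2A and GCN1 both K700E libraries lie below both WT libraries, while in MUC19, ANKRD36 and DYNC1H1 they do not.

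Host genes were then grouped by role, for lists drawn up with earlier results of these data known; no member of any list was called. Genes of RNA processing came first. Of 15 short introns in 8 pre-mRNA splicing genes, 2 were lower and 5 higher in both K700E libraries. The median difference was 2.62 points over the list, against -2.71 over the 976 short internal introns and -2.01 over all introns tested. SNRNP200, the helicase that unwinds U4 from U6 snRNA, gave 3 of the 5. Its intron 27 stood at 88.9% and 82.8% in WT against 90% and 100% in K700E, and its intron 22 at 93.8%, 96.0%, 100% and 100%. PRPF19, a ubiquitin ligase of the spliceosome, stood at 28.6%, 20.0%, 40.0% and 75% from as few as 5 reads. SF3B1 itself held 4 members. Its intron 15 (96 nt) was spliced in 87.9% and 100% of WT reads and in 75% and 71.4% of K700E reads, and its intron 13 (122 nt) in 96.1%, 100%, 81.2% and 94.4%. Both were lower in both K700E libraries, and neither passed (edgeR adjusted p = 1.00). The reads do not tell the alleles of SF3B1 apart. In 5 genes of RNA polymerase II and elongation 6 members were found, of which 0 were lower or higher in both.

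Genes of protein synthesis and turnover came next. In translation factor and tRNA synthetase genes, 8 of 15 tested were lower in both K700E libraries and 0 higher, with a median of -11.8 points over the 16 members. Besides EEF1A1, these included intron 7 of EIF4G2, a translation initiation factor of the eIF4G family, at 50.6%, 46.2%, 20.0% and 28.6%, and intron 48 of GCN1, an activator of the amino acid starvation kinase, at 90%, 87.1%, 40.0% and 42.9% (5 and 7 reads in K700E). All 7 members in the listed ribosomal protein genes were overlapped by other annotated introns and stood at 0 to 21.1%. RPL14, a ribosomal protein gene outside the list, held a member that no other annotated intron overlaps. In protein folding and degradation genes, 18 of 37 tested were lower in both and 2 higher, 7 of the 18 in UBR4, with a median of -10.3 points over 39 members. Intron 8 of VCP, an ATPase that pulls proteins out of complexes, stood at 83.9% and 90.9% in WT against 60% and 60% in K700E. Intron 14 of USP19, a deubiquitinase, stood at 93.8%, 73.3%, 40.0% and 42.9%. HSP90AB1 went both ways, with its intron 3 higher and its introns 8 and 9 lower in both K700E libraries, the last at 81.2%, 83.3%, 62.5% and 70.0%.

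The remaining lists held DNA, chromatin, transport and metabolic genes. In replication and repair genes, 5 of 21 tested were lower in both K700E libraries and 1 higher, with a median of -7.30 points. Besides TOP2A this list held POLE, the leading-strand polymerase, whose 7 members averaged 81.2% and 80.7% in WT against 73.4% and 79.3% in K700E. In chromatin genes, 6 of 14 were lower and 0 higher; CHD4, the NuRD remodeller, gave 3 of the 6, with its intron 21 at 100%, 94.6%, 83.3% and 88.2%. In cytoskeleton and membrane traffic genes, 9 of 28 were lower and 0 higher, with a median of -3.66 points. CLTC, the clathrin heavy chain, had its intron 26 at 93.5% and 93.2% in WT against 64.7% and 79.1% in K700E. In metabolic genes, 3 of 10 were lower and 0 higher, among them intron 3 of PGK1, a glycolytic kinase, at 75%, 69.3%, 50% and 62.5%. Over all introns tested, 17.7% were lower and 9.52% higher in both K700E libraries. Over the short internal introns tested, the class that the lists are drawn from, these shares were 23.5% and 9.04%. The share lower in both was above 23.5% for the lists of translation (53.3%), protein folding and degradation (48.6%), chromatin (42.9%), cytoskeleton and traffic (32.1%) and metabolism (30%). It was about the same for replication and repair (23.8%) and lower for the others. No list was tested, the lists were chosen with results known, and members of 1 gene share reads.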

How the data were processed

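For each of the 4 libraries the authors deposited a table of annotated introns with raw counts of covering reads and of junction reads, and their ratio, which matches those counts within 0.005. Per the submitters' processing notes, cutadapt, minimap2 and hg38 were used; versions: not given in the sources used here. Tables of RNA 3′ ends carry no identifiers and were not used. In-file labels of the mutant tables (MUT2, MUT3) differ from the titles' replicates 1 and 2; the series records were followed.

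Introns were placed on GENCODE 29 (87.3 to 87.6% of table lines) by transcript, number, start and strand, and identical coordinates were counted once. Ratios above 1 (43, 15, 26 and 17 members in WT replicates 1 and 2 and K700E replicates 1 and 2) were set to 100%. Junctions closer than about 12 nt are not resolved in these counts. Intron numbers follow 1 transcript holding the intron. Without molecular identifiers, intervals cover counting error only.

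Per-intron tests used edgeR 4.0.16 in R 4.3.3 (glmQLFit, dispersion 0, genotype interaction, no replicate block, at least 5 reads in every library), adjusted over all introns tested; the dispersion of 0 was taken from an earlier analysis of these data. The replicate spread was shared by all introns, and the scatter of a single intron had little weight in its p. Tested on simulated data, this fit called 9% of the introns made to differ by 4 on the log2 odds scale, 1% of those made to differ by 2, and 0 of the others, over 15309 introns. DESeq2 1.42.0, limma 3.58.1, other read minimums and leaving out each library were alternatives. Class means were compared by exact permutation over libraries. Named were introns past the threshold, the 8 lowest and 8 highest by p, the 6 most read, the 6 lowest and 6 highest in efficiency, the 3 shortest and longest, and members in fixed gene lists. The members and lists were chosen with earlier results of these data known. Sequences came from GENCODE 29 transcripts.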

Additional observations from a re-analysis of the deposited data

How the results depend on the processing

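Among the class means, the bands within 60 to 150 nt, the contrasts with flanking and containing annotation and the 16 named introns, none changed direction under the alternatives run. The count of short introns past the threshold was 0 as reported and 0 to 1 when each library was left out in turn; the 1, EEF1A1 intron 8 without WT replicate 2, had a log2 odds ratio of -9.27 (edgeR adjusted p = 0.00175). Over all introns tested, 4 passed as reported and 0 to 7 in the alternatives, and the short introns with an unadjusted p under 0.05 numbered 33 as reported and 7 to 56. At EEF1A1 intron 8 the log2 odds ratio without WT replicate 1 was -0.83. The value of this intron in WT replicate 1 was a ratio above 1 set to 100%. The other 15 of 16 named introns kept their side of the threshold in every setting run, but their sizes moved. Without WT replicate 1, the log2 odds ratio shrank by more than 1.5 times at 5 of the 16: besides EEF1A1 intron 8, from -2.85 to -0.70 at TOP2A intron 9, from 2.97 to 0.72 at ASPM intron 2, from -2.49 to -1.23 at UBR4 intron 4 and from 1.09 to 0.51 at HSP90AB1 intron 3. It shrank that far at 0 without WT replicate 2, at 1 without K700E replicate 1 and at 3 without K700E replicate 2. With the replicate number as a block, 0 short introns passed and the mean difference was -4.22 points. Same-numbered libraries did not deviate together (Pearson's r of their deviations was -0.12 over the 885 short introns tested and -0.09 over all). At so few reads per intron, this cannot tell whether same-numbered libraries shared a culture or a batch. Crossing the numbers gave 0 short introns and 4 of all introns, against 2 of all introns with the block. Requiring 10 or 20 reads in every library left 328 and 80 short introns tested, with 0 calls. Depth limits every value: with a median of 9 reads in K700E replicate 1, differences of several points at a single intron were not detectable. Much larger differences were mostly missed too. Of introns made to differ by 4 on the log2 odds scale in simulated data, the fit called only 9%. With 2 libraries per genotype, the exact permutation test could not go below p = 0.333.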
